A study of Arabidopsis thaliana with 45 samples.

Results

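The genes described here encode 7 proteins of the surface of seed oil bodies: the oleosins OLEO1, OLEO2, OLEO3, OLEO4 and AT3G01570, and the caleosins CLO1 and CLO2. They were chosen by locus, as the probe sets AT4G25140 (OLEO1), AT5G40420 (OLEO2), AT5G51210 (OLEO3), AT3G27660 (OLEO4), AT3G01570, AT4G26740 (CLO1) and AT5G55240 (CLO2), with earlier results of these data known. All 7 were measured, among 27827 probe sets in all. The reference annotation (TAIR10.1) also lists OLEO4 under the synonym OLE3, CLO1 under the symbol ATS1 and CLO2 under the symbol ATPXG2, and it gives AT3G01570 no symbol. No sequence of these genes is shown.

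The seeds came from NILDOG1-Cvi, a near-isogenic line of Arabidopsis thaliana in the Landsberg erecta background that is named in the labels for the dormancy gene DOG1 and the accession Cvi, and every group shares this genotype. Dormant and non-dormant seeds were taken after 6 h or 24 h of imbibition in plain water or in a solution of cordycepin, an analogue of adenosine used to block transcription. The arrays measured total RNA on 24 arrays and polysomal RNA, the RNA that sediments with several ribosomes, on 21. Of the 16 resulting groups 13 held 3 arrays, and 3 polysomal groups at 24 h held 2: dormant seeds in either treatment, and non-dormant ones treated with cordycepin. Per the labels a replicate pools 8 plants. The sources used here do not say how dormancy was lost in the non-dormant seeds.

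Oil bodies are the organelles in which oilseed embryos store triacylglycerol, bounded by a single layer of phospholipid. Oleosins insert a long hydrophobic hairpin into that layer and keep neighbouring oil bodies from fusing, while caleosins are calcium-binding proteins of the same surface with peroxygenase activity. Both are made during seed maturation, and both proteins are degraded as the oil is used up after germination.

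Values are RMA log2 intensities as deposited, and a difference of 1 is a 2-fold difference. Array medians ran from 3.86 to 4.32 and single values from 0.418 to 12.75. The 7 genes were far above those medians in every group: within each group's mean profile, every one of the 7 was at or above the 81.08 percentile of all probe sets. Levels are not compared between genes, since probe sets differ in how strongly they hybridise. The 7 seed storage protein genes that mark maturing embryos were measured as well, with gene means of 8.74 to 12.2, whereas the 5 seed coat markers were low throughout, between 1.28 and 4.55.

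Non-dormant seeds at 24 h had the lowest level of every one of the 7 transcripts. The 11 arrays of these seeds, which cover both treatments and both RNA types, lay below all the other 34 arrays for 7 of 7 genes, a pattern found for 1.95% of all probe sets (544 of 27827). The distance between the highest of the 11 and the lowest of the 34 was widest for CLO2, at 2.10 on the log2 scale, followed by CLO1 at 1.07, AT3G01570 at 0.82, OLEO2 at 0.81 and OLEO4 at 0.57. It was narrow for OLEO1, at 0.18, and for OLEO3, at 0.09, and OLEO3 overlapped when the arrays were rescaled by cyclic loess, which left 6 of 7 genes apart.

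**Figure D1:**
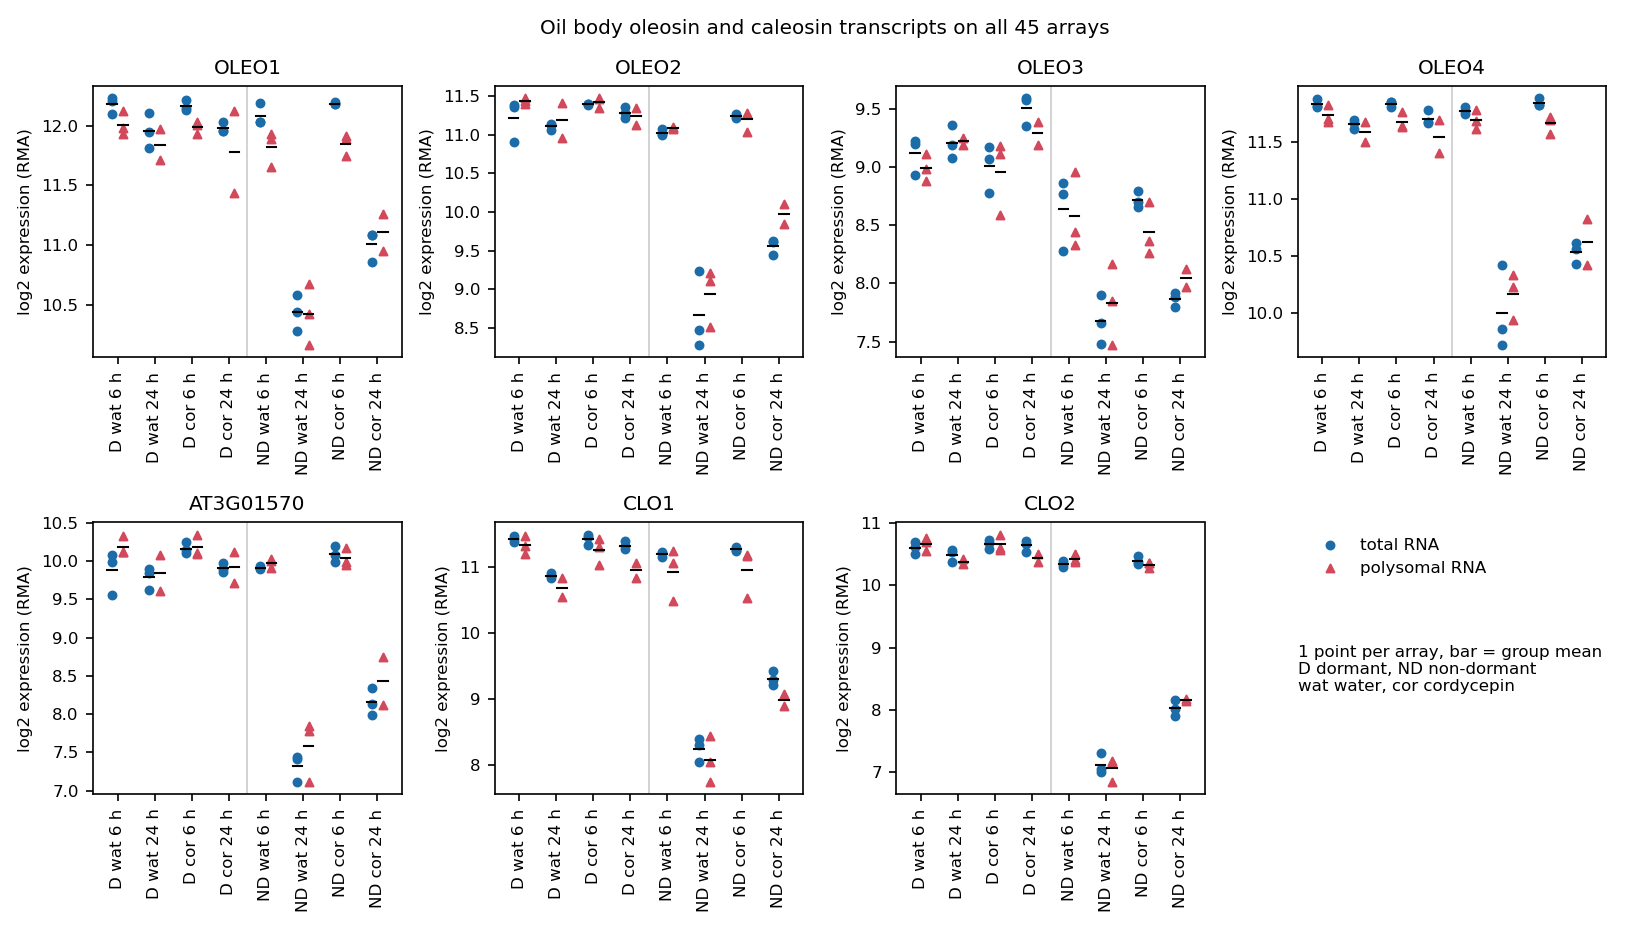
Log2 expression (RMA; a separate vertical scale for each gene) of the 7 oleosin and caleosin genes in each of 8 conditions, with 1 point per array (circles total RNA, triangles polysomal RNA) and a bar for each group mean. In every panel the non-dormant groups at 24 h, in water and in cordycepin, are the lowest; for CLO2 their values end at 8.17 while all other arrays start at 10.27.

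After 24 h in water non-dormant seeds held less of these transcripts than dormant seeds, relative to the average transcript. In total RNA all 7 genes were lower in non-dormant seeds (limma, Benjamini-Hochberg adjusted p under 0.05 over all probe sets), where 20.3% of all probe sets were called in either direction, 11.6% higher and 8.71% lower. Their median difference was -2.44, against -0.05 over all probe sets. Fold differences ran from 2.87 times lower for OLEO1 to 10.3 times lower for CLO2. In polysomal RNA the count was again 7 of 7, with 18.5% of all probe sets called and 8.13% lower, and the median difference was -2.24. Since whole seeds were profiled, fewer cells of a type and less RNA per cell cannot be told apart.

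CLO2, a seed caleosin with peroxygenase activity, had the widest separation. Its values in total RNA were 10.56, 10.38 and 10.53 in dormant seeds and 7.05, 7.0 and 7.31 in non-dormant seeds. The non-dormant arrays were all more than 3 log2 units below the dormant ones. The difference was -3.37 ± 0.128 (SE; adjusted p = 2.09e-20 in limma), which ranked 1 by p-value and 42 from the lowest difference among all probe sets. In polysomal RNA the values were 10.34 and 10.42 in dormant seeds and 6.85, 7.16 and 7.18 in non-dormant seeds, a difference of -3.31 ± 0.143 that also ranked 1 by p-value.

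CLO1, the other seed caleosin, was in total RNA at 10.83, 10.87 and 10.91 in dormant seeds and at 8.05, 8.31 and 8.39 in non-dormant seeds. The groups did not overlap, as held for 18.4% of all probe sets in this direction, and the difference of -2.62 ± 0.178 had a limma adjusted p of 3.45e-14. Its polysomal values were 10.83 and 10.55 against 7.75, 8.04 and 8.44, with a difference of -2.61 ± 0.199.

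Among the oleosins, AT3G01570 and OLEO2 differed most. AT3G01570 was at 9.62, 9.84 and 9.90 in dormant seeds and at 7.42, 7.12 and 7.44 in non-dormant seeds, both in total RNA, and the difference was -2.46 ± 0.181 (limma adjusted p = 2.54e-13). OLEO2, a major structural oleosin of the seed, was at 11.06, 11.14 and 11.13 in dormant seeds and at 8.48, 8.28 and 9.24 in non-dormant seeds, a difference of -2.44 ± 0.181 (limma adjusted p = 3.21e-13). Replicate 3 of the non-dormant seeds stood above the other replicates for OLEO2, but below every dormant array. In polysomal RNA the differences were -2.26 ± 0.202 for AT3G01570 and -2.24 ± 0.202 for OLEO2.

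The remaining oleosins differed by less. In dormant seeds OLEO1 and OLEO4 were near the top of the scale in total RNA, at the 99.93 and 99.87 percentile of all probe sets. Whether this narrowed their differences was not tested. OLEO4, another seed oleosin, was at 11.61, 11.69 and 11.66 in dormant seeds and at 9.72, 9.86 and 10.42 in non-dormant seeds, a difference of -1.65 ± 0.146 (limma adjusted p = 3.19e-11). OLEO1, the best known of the Arabidopsis seed oleosins, whose loss enlarges oil bodies, was at 11.81, 11.95 and 12.11 against 10.28, 10.44 and 10.58, a difference of -1.52 ± 0.153 (limma adjusted p = 6.3e-10). OLEO3 was at 9.36, 9.19 and 9.08 against 7.48, 7.66 and 7.90, a difference of -1.53 (SE 0.189; limma adjusted p = 6.28e-08). In all 3 the groups did not overlap, as held for 18.4% of all probe sets in this direction, and in polysomal RNA the differences were -1.42 for OLEO4, -1.42 for OLEO1 and -1.39 for OLEO3.

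In cordycepin at 24 h all 7 genes were again lower in non-dormant seeds, in total RNA (16.6% of all probe sets called, 7.79% lower) and in polysomal RNA (13.6% called, 5.86% lower). The total RNA differences were -2.62 for CLO2, -2.02 for CLO1, -1.76 for AT3G01570, -1.72 for OLEO2, -1.64 for OLEO3, -1.17 for OLEO4 and -0.98 for OLEO1. In polysomal RNA they ran from -2.28 for CLO2 to -0.67 for OLEO1. The OLEO1 value rested on 2 arrays a group, at 11.44 and 12.12 in dormant seeds and 10.95 and 11.26 in non-dormant seeds, and it was -0.33 (limma adjusted p = 0.411) without dormant replicate 2 and -0.52 (adjusted p = 0.168) without non-dormant replicate 1. Its call was also lost with a spread from the compared arrays alone (adjusted p = 0.311) or from polysomal arrays alone (0.0848) and after cyclic loess (0.0686), and that of OLEO4 (-0.92) with the compared arrays alone (0.118).

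At 6 h none of the 7 genes was called with limma between the 2 kinds of seed in any of the 4 comparisons. For water, 5.93% of all probe sets were called in total RNA and 4.49% in polysomal RNA, and for cordycepin 4.83% and 2.96%. With limma, 2, 2, 1 and 2 of the 7 genes in the same order had an unadjusted p under 0.05. The share of all probe sets with an unadjusted p under 0.05 was not worked out, so such counts, here and below, have no background. Of the 28 differences at 6 h the lowest was that of OLEO3 in polysomal RNA in cordycepin, -0.52 (adjusted p = 0.165), which was called with array weights (-0.62, adjusted p = 0.0161), and the others of OLEO3 were -0.48, -0.41 and -0.29. In water and total RNA OLEO3 was at 9.22, 9.20 and 8.93 in dormant seeds and at 8.28, 8.77 and 8.86 in non-dormant seeds, so the groups did not overlap but did not pass the test either (adjusted p = 0.139). CLO2 at 6 h was at 10.70, 10.50 and 10.61 in dormant seeds and 10.30, 10.34 and 10.39 in non-dormant seeds, a difference of -0.26 (adjusted p = 0.254).

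**Figure D2:**
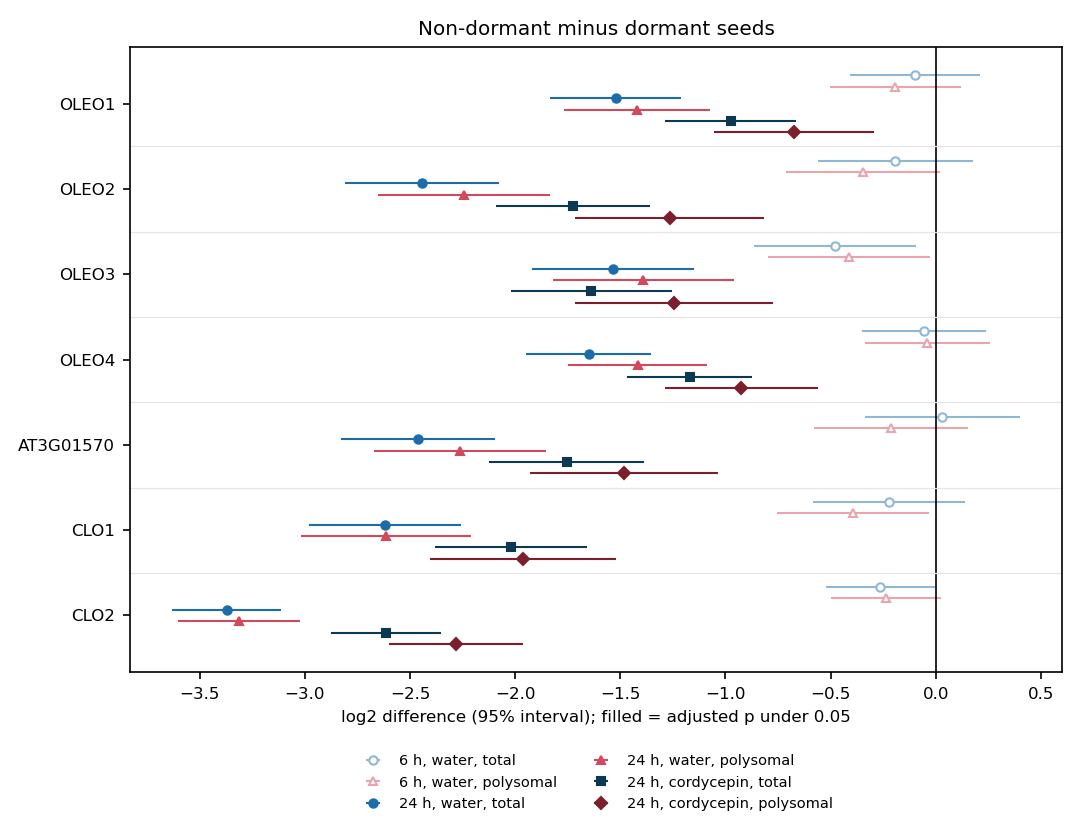
Difference between non-dormant and dormant seeds (log2, horizontal axis) for each gene, with 95% intervals from the limma fit, for water at 6 h and for water and cordycepin at 24 h, in total and polysomal RNA. Filled symbols have an adjusted p under 0.05: all values at 24 h are filled and to the left, from -3.37 to -0.67, and no value at 6 h is filled.

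Within non-dormant seeds the transcripts fell between 6 h and 24 h. In water and total RNA all 7 fell, where 31.7% of all probe sets were called and 15.1% fell. CLO2 fell by 3.22 ± 0.128 (limma adjusted p = 1.88e-20), so that 10.7% of its 6 h level was left, with a 95% interval of 8.94% to 12.8%. CLO1 was left at 12.9%, AT3G01570 at 16.7%, OLEO2 at 19.5%, OLEO4 at 29.3% and OLEO1 at 31.9% of the 6 h level. At 6 h OLEO1 and OLEO4 were near the top of the scale, at the 99.94 and 99.9 percentile of all probe sets. OLEO3 kept the most, 51.4% with an interval of 39.4% to 67.1%. These percentages are relative to the average transcript, because RMA normalizes arrays to each other.

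For CLO2 the non-dormant arrays in water went from 10.30, 10.34 and 10.39 at 6 h to 7.05, 7.0 and 7.31 at 24 h. For OLEO3 they went from 8.28, 8.77 and 8.86 to 7.48, 7.66 and 7.90. Neither gene's time points overlapped, but the distance between the nearest arrays was much smaller for OLEO3. In polysomal RNA all 7 genes fell as well (35% of all probe sets called, 17.3% fell), with 9.69% of the 6 h level left for CLO2 and 59.4% for OLEO3.

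In cordycepin the transcripts of non-dormant seeds fell as well. All 7 fell in total RNA (29.4% of all probe sets called, 13.6% fell), with 19.4% of the 6 h level left for CLO2, 25.6% for CLO1, 26.1% for AT3G01570, 31.3% for OLEO2, 40.5% for OLEO4, 44.2% for OLEO1 and 55.4% for OLEO3. In polysomal RNA 6 of 7 fell (29.1% called, 13.9% fell), the exception being OLEO3 at -0.39 (limma adjusted p = 0.187), which was called with arrays set to equal medians (-0.62, adjusted p = 0.0268).

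In dormant seeds most of the 7 genes were not called over the same time. In water only CLO1 was called, at -0.56 ± 0.178 in total RNA (limma adjusted p = 0.0248, 18.1% of all probe sets called) and -0.64 ± 0.199 in polysomal RNA (adjusted p = 0.025, 14.3% called). CLO1 went from 11.38, 11.42 and 11.47 at 6 h to 10.83, 10.87 and 10.91 at 24 h in total RNA. Both calls were close to the threshold: with the compared arrays alone, or with quantile normalization, CLO1 was not called in either RNA type, and in total RNA the call was also lost without replicate 1 or 2 at 24 h or replicate 2 or 3 at 6 h (adjusted p up to 0.0728). In polysomal RNA it was lost without replicate 2 at 24 h or replicate 1 or 3 at 6 h (adjusted p up to 0.274), and with a spread from polysomal arrays alone (adjusted p = 0.138). In cordycepin none of the 7 was called with limma in dormant seeds (16.6% of all probe sets called in total RNA and 14.4% in polysomal RNA), 1 and 0 having an unadjusted p under 0.05. That gene was OLEO3, whose value was higher at 24 h, at 9.59, 9.35 and 9.58 against 8.78, 9.07 and 9.17 at 6 h, a difference of 0.50 (adjusted p = 0.0678) that was called with a spread from total RNA arrays alone, with trend and robust, with dim probe sets left out and with either replicate block (adjusted p 0.0298 to 0.048).

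**Figure D3:**
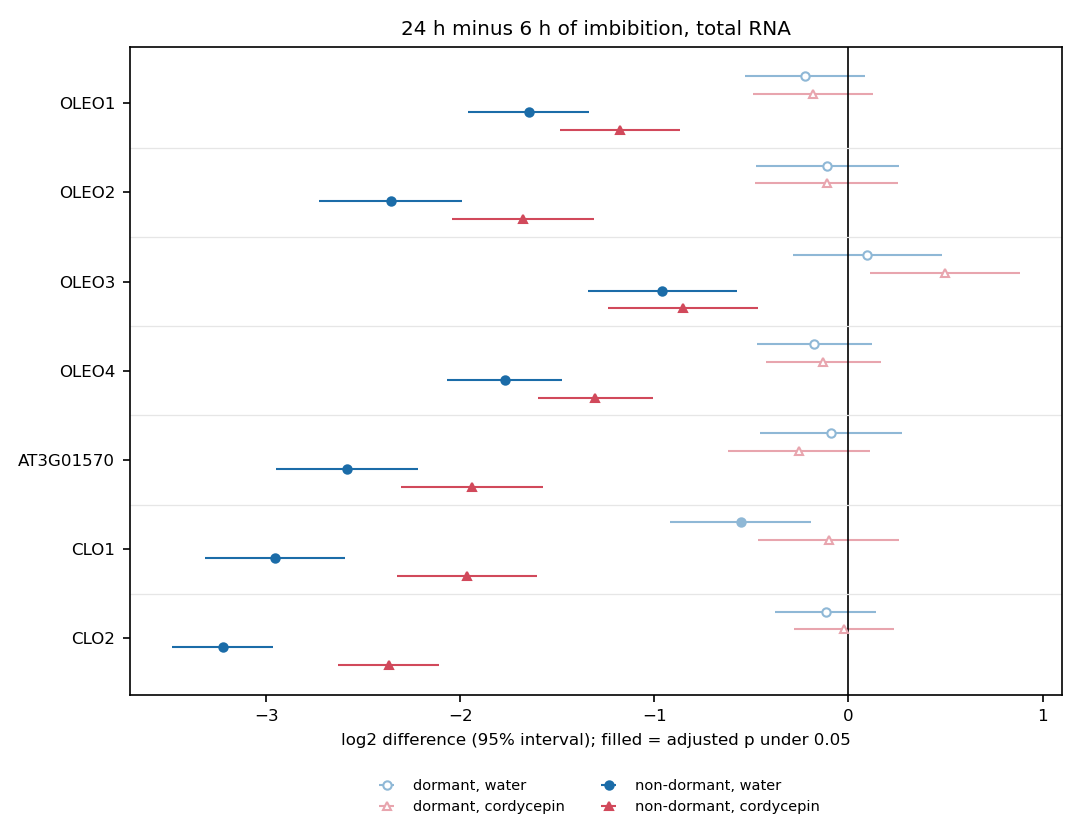
Difference between 24 h and 6 h in total RNA (log2, horizontal axis) for each gene in dormant and non-dormant seeds in water and in cordycepin, with 95% intervals; filled symbols have an adjusted p under 0.05. Non-dormant values run from -3.22 to -0.85 and all are filled, while of the 14 dormant values the one for CLO1 in water, -0.56, is filled.

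The difference between the time courses of the 2 kinds of seed was tested directly as an interaction. It was called for 7 of 7 genes in water in total RNA (9.33% of all probe sets), in cordycepin in total RNA (7.69%) and in water in polysomal RNA (7.35%). In cordycepin and polysomal RNA it was called for 5 of 7 (5.32%), without OLEO1 and OLEO3, and that count fell to 2 or 3 when single arrays were left out (2 without non-dormant cordycepin replicate 1, 3 without dormant cordycepin replicate 2, both at 24 h). The largest interaction was that of CLO2 in water and total RNA, where the fall was 3.11 ± 0.181 log2 units deeper in non-dormant seeds (limma adjusted p = 2.55e-14). The smallest of the 7 there was that of OLEO3, at -1.06 ± 0.268 (adjusted p = 0.00715). In water and polysomal RNA the call of OLEO3 was lost without any of 5 single arrays (adjusted p up to 0.103): either dormant array or non-dormant replicate 1 at 24 h, and dormant replicate 2 or non-dormant replicate 3 at 6 h. It was also lost with the compared arrays alone (0.15), with polysomal arrays alone (0.101) and after cyclic loess (0.074).

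Most of these transcripts were higher in cordycepin than in water in non-dormant seeds at 24 h. In total RNA 6 of 7 were higher, where 3.28% of all probe sets were called and 1.54% were higher. CLO1 was at 9.29, 9.21 and 9.42 in cordycepin and at 8.05, 8.31 and 8.39 in water, a difference of 1.06 ± 0.178 (limma adjusted p = 0.000179). CLO2 was at 8.16, 7.90 and 8.02 against 7.05, 7.0 and 7.31, a difference of 0.91 ± 0.128 (adjusted p = 1.17e-05). Both caleosins therefore lay between their water level at 24 h and their level at 6 h.

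OLEO2 was 0.89 higher (limma adjusted p = 0.00184) and AT3G01570 0.82 higher (adjusted p = 0.00458). OLEO1, at 11.08, 10.86 and 11.08 in cordycepin and 10.28, 10.44 and 10.58 in water, was 0.57 higher (adjusted p = 0.026), and OLEO4 was 0.53 higher (adjusted p = 0.0321). Both calls were close to the threshold: OLEO4 kept its call only when the array left out was replicate 3 in water, with differences of 0.39 to 0.75 over the 6 arrays, and OLEO1 only for that array and replicate 2 in cordycepin, with 0.50 to 0.65. Arrays set to equal medians ended both calls (adjusted p = 0.0612 for OLEO1 and 0.0655 for OLEO4), and cyclic loess that of OLEO4 (0.0623). OLEO3 was at 7.92, 7.88 and 7.80 in cordycepin and 7.48, 7.66 and 7.90 in water, so the groups overlapped, and its difference of 0.19 (95% interval -0.20 to 0.57) was not called. With a spread estimated from the compared arrays alone, 3 of 7 genes kept their call. OLEO1 (limma adjusted p = 0.0956), OLEO2 (0.105) and OLEO4 (0.217) lost theirs.

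In polysomal RNA 5 of 7 were higher in cordycepin (2.7% of all probe sets called, 1.44% higher): CLO2 by 1.1, OLEO2 by 1.03, CLO1 by 0.91, AT3G01570 by 0.85 and OLEO1 by 0.69. OLEO4 differed by 0.45 and OLEO3 by 0.22, and neither was called, although OLEO4 was called with trend and robust (limma adjusted p = 0.0415). The count of 5 dropped to 2 without replicate 2 of the non-dormant seeds in cordycepin at 24 h and to 2 without their replicate 1 in water, and to 0 with the compared arrays alone.

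Elsewhere cordycepin and water were not told apart. In dormant seeds at both times and in non-dormant seeds at 6 h, 0 of 7 genes were called with limma in any of the 6 comparisons, and 1 of the 42 values had an unadjusted p under 0.05, CLO1 in dormant seeds at 24 h in total RNA, at 0.46 (adjusted p = 0.287). Few probe sets were called there at all: 0.201% and 1.15% in dormant total RNA at 6 h and 24 h, 0.0108% and 0.377% in dormant polysomal RNA, and 0.0827% and 0.0252% in non-dormant total and polysomal RNA at 6 h.

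Whether the response to cordycepin at 24 h differed between non-dormant and dormant seeds was tested as an interaction. CLO2 passed in polysomal RNA, at 1.03 ± 0.212 (limma adjusted p = 0.0183, 0.18% of all probe sets called), a call that was lost when any of the 24 h polysomal arrays but replicates 2 and 3 of non-dormant seeds in water was left out (adjusted p up to 0.134), with the compared arrays alone (0.762) and with polysomal arrays alone (0.234). In total RNA 0 of 7 were called (0.295% of all probe sets). An unadjusted p under 0.05 was reached by 6 of 7, without a share over all probe sets to set beside it. CLO2 was at 0.76 there (limma adjusted p = 0.0566), and it was called with trend and robust, array weights, dim probe sets left out or either replicate block (adjusted p 0.00696 to 0.0468). Within non-dormant seeds the response differed between 24 h and 6 h for CLO2 in total RNA, by 0.86 ± 0.181 (adjusted p = 0.0108, 0.765% called), and in polysomal RNA, by 1.21 ± 0.192 (adjusted p = 0.000488, 0.453% called). With the compared arrays alone neither call of CLO2 held (adjusted p = 0.0804 and 0.178). CLO1 had a larger value in total RNA, 0.99 ± 0.252, that just missed the threshold (adjusted p = 0.0502) and was called under 7 alternatives, both replicate blocks among them (adjusted p 0.00254 to 0.0443). In polysomal RNA CLO1 was at 0.88 (adjusted p = 0.197), and it was called with the replicate block within RNA type (1.0, adjusted p = 0.00552) and without replicate 2 of the 6 h water arrays (adjusted p = 0.0439). The other 5 genes were not called with limma in either kind of interaction, although OLEO1 in polysomal RNA (0.66, adjusted p = 0.362) was called after quantile normalization over all arrays (adjusted p = 0.0416). OLEO2 in total RNA was called in both kinds without replicate 3 of non-dormant seeds in water at 24 h. There it was at 1.00 for dormancy (limma adjusted p = 0.0428) and 0.97 for time (0.0394).

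No gene of the 7 was called between polysomal and total RNA. This held in all 8 conditions with limma, although between 12.2% and 28% of all probe sets were. By condition the background was 24.3% and 16.6% for dormant seeds in water at 6 h and 24 h, 26.6% and 14.2% for dormant seeds in cordycepin, 24.9% and 14.8% for non-dormant seeds in water, and 28% and 12.2% for non-dormant seeds in cordycepin. The 56 differences lay between -0.38 and 0.41, and their 95% intervals between -0.78 and 0.82. An unadjusted p under 0.05 was reached by 2 of them: OLEO1 in non-dormant seeds in cordycepin at 6 h, at -0.33 (adjusted p = 0.101; called with trend and robust, 0.036, and with the replicate block within RNA type, 0.0334), and OLEO2 in non-dormant seeds in cordycepin at 24 h, at 0.41 (adjusted p = 0.185).

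OLEO2 in non-dormant seeds in cordycepin at 24 h was at 9.63, 9.61 and 9.45 in total RNA and at 9.84 and 10.10 in polysomal RNA. OLEO1 in non-dormant seeds in water at 24 h was at 10.28, 10.44 and 10.58 in total RNA and at 10.16, 10.67 and 10.42 in polysomal RNA, with full overlap. No interaction of RNA type with dormancy or with time was called for any of the 7 genes (limma, 0 of 56 values, none with an unadjusted p under 0.05). Of all probe sets, the interaction with dormancy was called for 0.00719% in water at 24 h and for 0.00359% in each of the other 3 conditions. That with time was called for 0.0359% in dormant and 0.169% in non-dormant seeds in water, and for 0.0108% and 0.101% in cordycepin. These results are relative to the average transcript. With arrays set to equal medians, which shifts the median of all probe sets by up to 0.339 in single comparisons, OLEO2 (0.49) and AT3G01570 (0.59) were called higher in polysomal RNA of dormant seeds in water at 6 h, and CLO2 (0.37) in that of non-dormant seeds in water at 6 h.

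**Figure D4:**
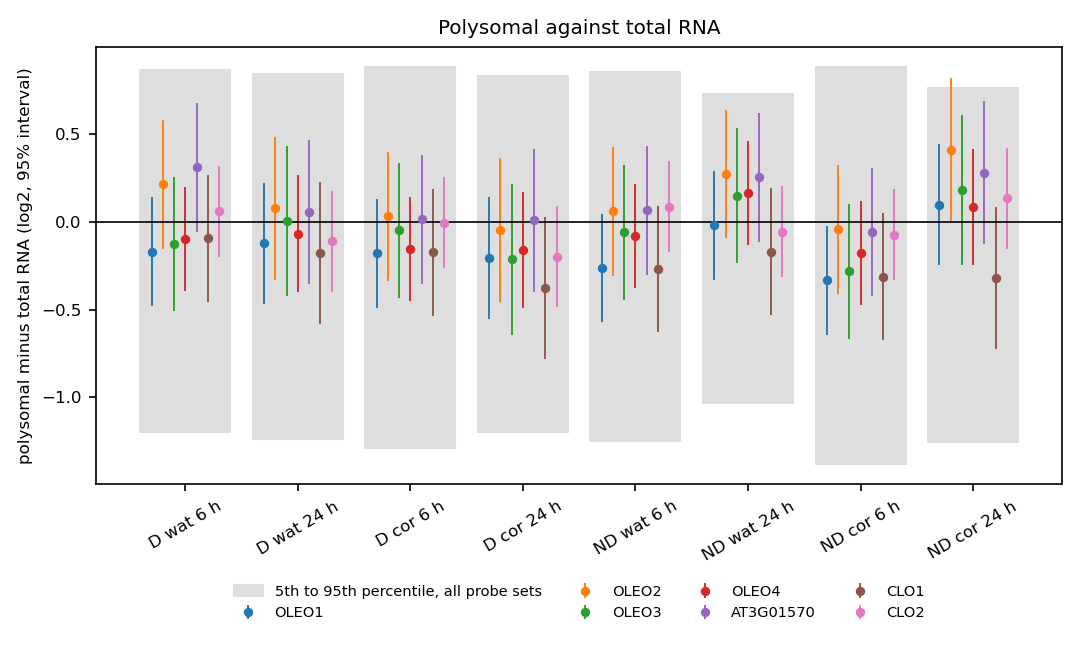
Difference between polysomal and total RNA (log2, vertical axis) in the 8 conditions (D dormant, ND non-dormant, wat water, cor cordycepin), with 95% intervals for each gene; the grey band spans the 5th to 95th percentile of all 27827 probe sets. All 56 points lie between -0.38 and 0.41, inside the band of their condition.

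Across all 16 groups, for every one of the 7 the 4 lowest groups were the non-dormant groups at 24 h. The largest step between neighbouring groups in the order was always the one above those 4 groups: 2.16 for CLO2, 1.39 for CLO1, 1.36 for AT3G01570, 1.05 for OLEO2, 0.92 for OLEO4, 0.67 for OLEO1 and 0.39 for OLEO3. Most other neighbours did not differ beyond their spread: of 15 steps per gene only 2 to 5 exceeded the larger SD of the groups on either side. Among the other 12 groups the means of CLO2 ranged from 10.32 to 10.67, those of OLEO1 from 11.78 to 12.19 and those of CLO1 from 10.69 to 11.43.

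OLEO3 was highest at a different time point among those 12 groups, although most steps between neighbours there lay within the spread. Its means ranged from 8.44 to 9.51. It was highest in dormant seeds in cordycepin at 24 h, 0.212 above the next group (larger SD 0.14). The other 6 genes were all highest in a group at 6 h, but only by 0.003 to 0.012 over the next group, which was within the spread. As a description, the correlation of each gene with the mean profile of the 7 over 16 group means was 0.998 for CLO2, 0.993 for OLEO2, 0.993 for OLEO4, 0.992 for AT3G01570, 0.991 for CLO1 and 0.985 for OLEO1, but 0.889 for OLEO3, which each gene partly makes itself. These correlations share the contrast of the non-dormant groups at 24 h with the rest.

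By the same measure 453 probe sets reached 0.9 and 156 reached 0.95. Both counts include 6 of the 7, so many genes outside the 7 had this profile. These genes were not sorted by whether they belong to the oil body, and the further oleosin AT3G18570 (0.989) was among them. The 8 most alike outside the 7 were AT1G54870 (0.996), AT1G04560 (0.994), AT5G45690 (0.993), AT3G56350 (0.993), AT5G65550 (0.991), PDF2.1 (0.990), AT3G14595 (0.990) and M10 (0.989). Within groups, where deviations of the 45 arrays from their group means were compared, the genes went together less: OLEO2 with OLEO4 had 0.731 and OLEO1 with OLEO4 0.706, while CLO1 had -0.103 with AT3G01570, -0.012 with CLO2 and 0.643 with OLEO3.

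Other genes of the oil body were examined with lists set by locus. The counts of the lists after 24 h in water in total RNA stand against 20.3% of all probe sets called there, 11.6% higher and 8.71% lower. Of 5 further oleosins all were lower in non-dormant seeds after 24 h in water in total RNA, with AT3G18570 at -3.71, AT2G25890 at -2.56, AT5G56100 at -1.78 and AT1G48990 at -1.20 (limma adjusted p at most 1.58e-07 for these 4). In polysomal RNA 4 of 5 were lower, where 18.5% of all probe sets were called and 8.13% were lower. AT2G25890, at -1.35 (adjusted p = 0.000444), and AT1G48990, at -0.76 (adjusted p = 0.00134), were already lower at 6 h in water and total RNA, where 5.93% of all probe sets and none of the 7 genes above were called. In cordycepin 3 of the 5 were higher than in water in non-dormant seeds at 24 h in total RNA, AT3G18570 by 1.31, AT2G25890 by 1.16 and AT1G48990 by 0.65, where 3.28% of all probe sets were called and 1.54% were higher. The call of AT1G48990 was lost without replicate 3 in cordycepin (adjusted p = 0.0599) or replicate 2 in water (0.0508). Steroleosins, hydroxysteroid dehydrogenases of the same organelle, had 4 of 7 listed genes measured, and HSD5 (-1.91) and HSD6 (-1.13) were lower after 24 h in water. HSD5 fell by 1.55 between 6 h and 24 h in non-dormant seeds in water (adjusted p = 6.56e-07), while HSD6 was at 0.05 there (adjusted p = 0.897) and rose by 0.87 in dormant seeds (adjusted p = 0.00191).

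Tapetum oleosins and the other caleosins were not called with limma in that comparison. The 5 tapetum oleosins, proteins of the pollen coat, had 0 of 5 called with limma (1 of 5 in total RNA after quantile normalization or cyclic loess, with array weights or with dim probe sets left out), with gene means of 2.14 to 5 and single values of 1.4 to 7.66. The other 5 caleosins, among them the drought-responsive RD20, had 0 of 5, with all values between 1.08 and 3.51. In the list of lipid droplet proteins and lipases 2 of 8 were called higher and 1 called lower after 24 h in water in total RNA of non-dormant seeds: AT2G47780 at 1.70, AT1G67360 at 1.26 and AT5G16550 at -1.43. AT2G47780 rose by 2.66 ± 0.232 between 6 h and 24 h in non-dormant seeds in water (limma adjusted p = 8.82e-12), opposite to the oleosins, and was at 0.29 in dormant seeds (adjusted p = 0.441). SDP1, the main triacylglycerol lipase of Arabidopsis seedlings, differed by 0.25 between the 2 kinds of seed (adjusted p = 0.26) and fell between 6 h and 24 h in both, by 0.89 in non-dormant and by 0.91 in dormant seeds.

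Genes of oil synthesis and oil body formation had 4 of 8 lower and 0 higher after 24 h in water in total RNA (8.71% of all probe sets were lower): AT5G16460 at -2.46, TAG1 at -1.06, AT2G34380 at -0.75 and AT1G29760 at -0.63. TAG1 encodes the acyl-CoA:diacylglycerol acyltransferase DGAT1, which adds the last acyl chain of the oil. AT5G16460 was already lower at 6 h, at -1.70 (limma adjusted p = 3.25e-05). The 2 genes listed for oleosin removal, CDC48 (0.29) and AT4G10790 (0.33), were not called with limma, and 0 of 2 had an adjusted p under 0.05, though 1 of the 2 was called when the arrays were quantile normalized or scaled by cyclic loess.

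The seed storage protein genes, which are made in the same cells during maturation, had 7 of 7 lower after 24 h in water in total RNA, SESA2 at -2.13, CRU2 at -2.06, SESA4 at -1.71 and CRA1 at -1.66. Among 11 regulators of seed maturation 2 were lower, where 20.3% of all probe sets were called and 8.71% were lower, so that the count is near the background: ABI5 (-1.17), a transcription factor of abscisic acid signalling, and BZIP53 (-0.88), a transcription factor that activates maturation genes. ABI3, which activates oleosin and storage protein genes, was at 9.30 in non-dormant seeds and 9.42 in dormant ones, a difference of -0.12 (limma adjusted p = 0.786). With arrays of total RNA alone, array weights or equal means of the middle probe sets 4 of the 11 regulators were called.

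Some markers of other tissues differed at 24 h as well. Of 4 endosperm markers 3 were higher and 1 was lower in non-dormant seeds in water and total RNA: EXPA2 (4.96), an expansin, MAN7 (2.0), a mannanase, and NCED6 (1.04), an enzyme of abscisic acid synthesis, against EPR1 (-1.31), an extensin. The call of NCED6 was lost after quantile normalization over all arrays (adjusted p = 0.0597) and without replicate 1 or 2 of either kind of seed (adjusted p up to 0.172). The summed level of the 4 was 11.16 to 11.37 in dormant and 10.62 to 10.81 in non-dormant seeds. Such a sum adds unlogged values, so the brightest genes weigh most (gene means 3.36 to 10.57). It therefore does not follow the 3 markers that were higher. The 5 seed coat markers had 0 called, with sums of 5.05 to 5.5 and 5.14 to 5.31. Of 3 markers of green seedlings RBCS1A was higher (2.27), and the sums, again weighted to the brightest gene (gene means 2.27 to 7.76), were 8.22 to 8.48 and 10.31 to 10.65. Their part in the lower oleosin and caleosin levels was not tested.

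**Figure D5:**
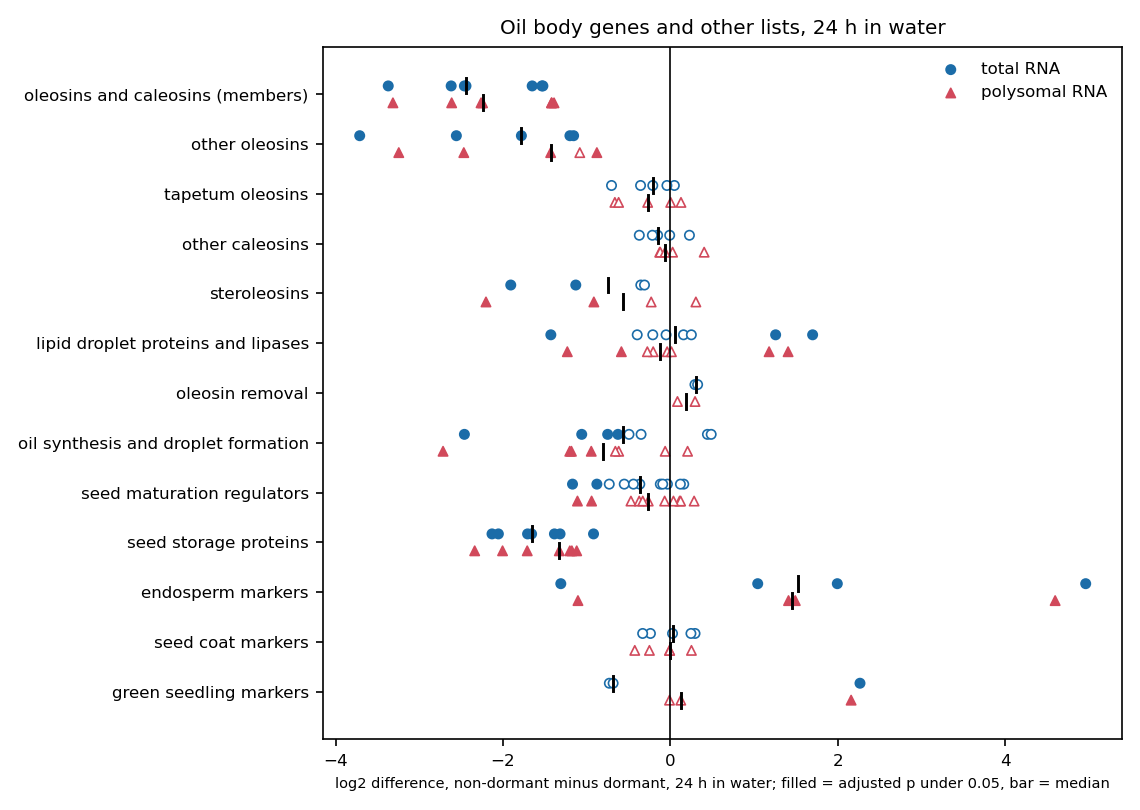
Difference between non-dormant and dormant seeds after 24 h in water (log2, horizontal axis) for each gene of the 7 and of 12 lists, circles for total and triangles for polysomal RNA; filled symbols have an adjusted p under 0.05 and the black bar is the median of a list. The oleosins, caleosins, other oleosins and seed storage proteins lie to the left of 0, and tapetum oleosins and other caleosins lie around 0 and are open.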

How the data were processed

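Values are the authors' deposited log2 intensities, made with RMA (background correction, normalization between arrays, summary of probes) per the submitters' processing notes, without a version; which array was used and how its probe sets were defined is not stated in these sources. Because the normalization sets arrays to each other, all differences are relative to the average transcript. Groups follow the titles; the labels' treatment protocol speaks of dry seeds and their molecule field of total RNA throughout. No value was changed further. Names came from the RefSeq genes of TAIR10.1, which matched 27241 of 27827 loci.

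All 45 arrays entered 1 linear model whose terms were the group means (limma 3.58.1, R 4.3.3; data.table version 1.17.8), so all groups share 1 estimate of the spread (29 residual and 6.392 prior degrees of freedom). Calls were made at an adjusted p under 0.05 (Benjamini-Hochberg) over all probe sets of a comparison; intervals are 95%. The fit was tested on simulated data. The number of arrays limits precision. The comparisons share arrays, so none is independent support for another.

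The members, the 12 gene lists and the tests were chosen with earlier results of these data known. The text names all 7 members, up to 4 called genes of each list with the largest difference in water, total RNA, 24 h, and the 8 probe sets most alike over group means; SDP1, ABI3, CDC48, AT4G10790 and RD20 were named after their values were seen. Of same-numbered arrays, those of the 24 h and 6 h polysomal groups of non-dormant seeds in water deviated together in all 3 pairs (correlation 0.148 to 0.492), and the replicate block changed no call there. Alternatives were other spread estimates, 5 scalings, a filter at a mean of 4, replicate blocks and leaving out each array.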

Additional observations from a re-analysis of the deposited data

Results flagged for a closer look

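The change between 6 h and 24 h differed between non-dormant and dormant seeds, tested as an interaction in limma, and the values below are how much lower the 24 h minus 6 h difference was in non-dormant seeds (log2). In water and total RNA these were -1.424 for OLEO1, -2.25 for OLEO2, -1.057 for OLEO3, -1.596 for OLEO4, -2.493 for AT3G01570, -2.398 for CLO1 and -3.108 for CLO2. In cordycepin and total RNA they were -0.994 for OLEO1, -1.564 for OLEO2, -1.35 for OLEO3, -1.174 for OLEO4, -1.683 for AT3G01570, -1.864 for CLO1 and -2.346 for CLO2. Polysomal RNA gave, in water, -1.228 for OLEO1, -1.898 for OLEO2, -0.979 for OLEO3, -1.378 for OLEO4, -2.049 for AT3G01570, -2.218 for CLO1 and -3.079 for CLO2. For cordycepin and polysomal RNA the called values were -1.031 for OLEO2, -0.906 for OLEO4, -1.337 for AT3G01570, -1.67 for CLO1 and -1.946 for CLO2. OLEO3 in water and polysomal RNA (adjusted p = 0.0257) and OLEO2 in cordycepin and polysomal RNA (adjusted p = 0.0245) were the closest to the threshold.

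The response of CLO2 to cordycepin differed as well in limma, although each of its calls was lost with a spread from the compared arrays alone (adjusted p = 0.762, 0.0804 and 0.178 in the order below), and CLO1 in total RNA (0.987, adjusted p = 0.0502) was called under 7 alternatives. For CLO2 the cordycepin minus water difference at 24 h in polysomal RNA was 1.032 higher in non-dormant than in dormant seeds, and within non-dormant seeds it was higher at 24 h than at 6 h, by 0.855 in total RNA and by 1.205 in polysomal RNA.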

How the results depend on the processing

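The alternatives were a spread from the compared arrays alone or from arrays of 1 RNA type, limma's trend and robust options, array weights, 5 other scalings, leaving out probe sets with a mean under 4, replicate blocks, and leaving out each array. Of 7091 gene values 6972 stayed on the same side of the threshold, 84 were no longer called and 35 became called. Of the values called in either fit 0 changed direction, while changes of direction in values called in neither were not counted. Of 1013 counts of called members 952 stayed within 1.5 times. The non-dormant 24 h arrays stayed below the rest for 6 or 7 of 7 genes under the other scalings, chosen for this count after seeing the data. No listed setting changed the count of 7 for non-dormant against dormant seeds at 24 h in water, or for 24 h against 6 h in non-dormant seeds in water, in either RNA type.

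With the compared arrays alone, cordycepin against water in non-dormant seeds at 24 h gave 3 called (total, 6 before) and 0 (polysomal, 5 before), the dormancy by time interaction in cordycepin and polysomal RNA 2 (5 before), and CLO1 in dormant seeds in water in either RNA type, the dormancy by treatment interaction at 24 h in polysomal RNA and the treatment by time interaction in non-dormant polysomal RNA 0 each (1 before). With arrays of the RNA type alone these were 2 for cordycepin at 24 h in polysomal RNA, 3 for the dormancy by time interaction and 0 for CLO1 and for the dormancy by treatment interaction, all in polysomal RNA, while in total RNA 1 member rose over time in dormant seeds in cordycepin (0 before) and treatment by time in non-dormant seeds gave 2 (1 before).

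Trend and robust, the filter and both replicate blocks each gave 1 for that rise in dormant seeds, 1 for dormancy by treatment at 24 h in total RNA (0 before) and 2 for treatment by time in non-dormant total RNA. Array weights gave 1 and 2 for the last pair and 1 for non-dormant against dormant seeds at 6 h in cordycepin and polysomal RNA (0 before). Trend and robust and the replicate block within RNA type gave 1 for polysomal against total RNA in non-dormant seeds in cordycepin at 6 h, and that block and quantile normalization over all arrays gave 2 for treatment by time in non-dormant polysomal RNA. Both quantile normalizations gave 0 for dormant seeds in water over time in either RNA type, cyclic loess gave 3 for dormancy by time in cordycepin and polysomal RNA, and equal array medians gave 2 and 1 for polysomal against total RNA in water at 6 h in dormant and non-dormant seeds. The replicate block changed no other count by over 1.5 times, and in polysomal RNA it brought in CLO1 for treatment by time in non-dormant seeds. Same-numbered polysomal arrays of different groups correlated at a median of 0.263 (66 pairs of arrays, -0.014 to 0.492), against -0.164 for different numbers; in total RNA the medians were 0.016 and -0.007. Outside the 24 h and 6 h polysomal groups of non-dormant seeds in water, no comparison with 3 pairs had every pair over 0.1, and polysomal comparisons with 2 pairs or fewer cannot settle the pairing.

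Leaving out single arrays moved counts over 0 to 1 for CLO1 in dormant seeds in water (total and polysomal), for dormancy by treatment at 24 h in polysomal RNA and for polysomal against total RNA in non-dormant seeds in water at 24 h (1 without total replicate 3). The range was 0 to 2 for dormancy by treatment at 24 h in total RNA (2 without non-dormant water replicate 3), 2 to 6 for dormancy by time in cordycepin and polysomal RNA, 2 to 5 and 4 to 6 for cordycepin at 24 h in non-dormant polysomal and total RNA, and 1 to 2 for treatment by time in non-dormant total and polysomal RNA (2 without the 24 h water replicate 3 in total RNA and without the 6 h water replicate 2 in polysomal RNA). The causes were not tested. Of 2131 values of listed genes 2026 stayed on the same side of the threshold, 54 were no longer called and 51 became called. Among those called in either fit 0 changed direction.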
